A study of Mus musculus with 11 samples.

Results

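The genes described here are 42 mouse genes whose products carry out mitosis: cyclins with Cdk1 and its Cdc25 phosphatases, mitotic kinases, spindle checkpoint proteins, kinetochore subunits, spindle motors and cytokinesis proteins. They were listed by name for their known roles, and all 42 matched the 21887 protein-coding genes of the RefSeq table on chromosomes 1 to 19, X and Y. What was asked of them is which carried a peak of an active histone mark at the promoter, in glands of the stomach from 4 mouse genotypes.

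Cells enter mitosis when Cdk1, bound to a B-type cyclin, is freed from inhibition by Cdc25 phosphatases, and they leave it when the anaphase-promoting complex (APC/C) with Cdc20 destroys cyclin B and securin. Between these steps kinetochores attach chromosomes to the spindle while a checkpoint built on the Mad and Bub proteins holds the APC/C back. Most of these genes are transcribed late in the cell cycle through promoters that hold CCAAT boxes and a cell cycle homology region, so in a tissue such as the gastric gland, where dividing progenitors lie among many resting cells, their chromatin marks come from a mixture of cells.

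The series holds 11 ChIP-seq libraries, in which antibodies pull down DNA wrapped around modified histones. Of these, 8 were made for acetylated lysine 27 of histone H3 (H3K27ac), a mark of active promoters and enhancers, and 3 are labelled as trimethylated lysine 4 (H3K4me3), a mark of active promoters. The protocol text shared by all libraries names an antibody to H3K27ac alone, also for those labelled H3K4me3, so what is written below on H3K4me3 rests on the label. The H3K27ac libraries fall into 4 groups of 2: wild type (WT); Atp4bCre; Rosa26NICD (NICD, the group that sample titles call the control); Atp4bCre; Rosa26NICD; Arid1aflox/+ (1-allele); and Atp4bCre; Rosa26NICD; Arid1aflox/flox (2-allele). The H3K4me3 label is given once each to WT, to NICD and to a library with floxed Arid1a whose title and genotype disagree on the number of floxed alleles, so it is called Arid1a-floxed here.

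Every group other than WT thus shares the Cre recombinase and the Notch transgene. Atp4b encodes a subunit of the acid pump of parietal cells, so Cre is directed to that cell type. NICD is the intracellular, active part of the Notch receptor, placed at the Rosa26 locus, and Arid1a encodes a DNA-binding subunit of the BAF chromatin remodelling complex. Epithelial pellets were pooled before immunoprecipitation, and ages, sexes and strains are not given in the sources used here. It is not known if libraries of one group had different animals behind them, so the spread between them may be technical. In such bulk material, fewer cells with a mark and less of the mark per cell cannot be told apart.

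The lists differed widely in length. The H3K27ac lists held 20590 and 18360 peaks in WT, 41405 and 25442 in NICD, 5165 and 7602 in 1-allele and 15362 and 14373 in 2-allele. The H3K4me3 lists held 17558 (WT), 39420 (NICD) and 5175 (Arid1a-floxed). The 6 H3K27ac lists with headers record 7.96 M (NICD 2) to 18.26 M (WT 1) filtered tags. NICD 2 stood apart, with the fewest tags and a redundant rate of 0.52 against 0.10 to 0.31 in the others. NICD lists were longer although their tags were fewer than in WT, and fragments were longer in NICD (197 and 200 bp) than in WT (141 and 162 bp). Among gastric epithelial markers, 9 and 8 of 14 carried H3K27ac in WT, 9 and 5 in NICD, 3 and 1 in 1-allele, and 6 and 3 in 2-allele.

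A gene was counted as carrying a mark in a library when a peak overlapped by at least 1 bp the window within 1 kb of either end of the gene. H3K27ac was counted at 20 and 18 of the 42 mitosis genes in WT, at 39 and 31 in NICD, at 4 and 6 in 1-allele and at 24 and 21 in 2-allele. Over all protein-coding genes, the shares were 43.1% and 40.9% in WT, 53% and 47.3% in NICD, 16.1% and 25.8% in 1-allele and 42.6% and 41.2% in 2-allele. The mitosis genes thus stood close to the average gene in WT, above it in both NICD libraries, below it in both 1-allele libraries and above it in 2-allele. As a log2 odds ratio against all other genes, the means were 0.20 ± 0.10 in WT, 2.47 ± 1.21 in NICD, −0.84 ± 0.17 in 1-allele and 0.68 ± 0.23 in 2-allele (SD, n = 2 libraries each). In NICD 1, 3 of the 42 genes lacked a peak, and in NICD 2, 11 did.

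**Figure D1:**
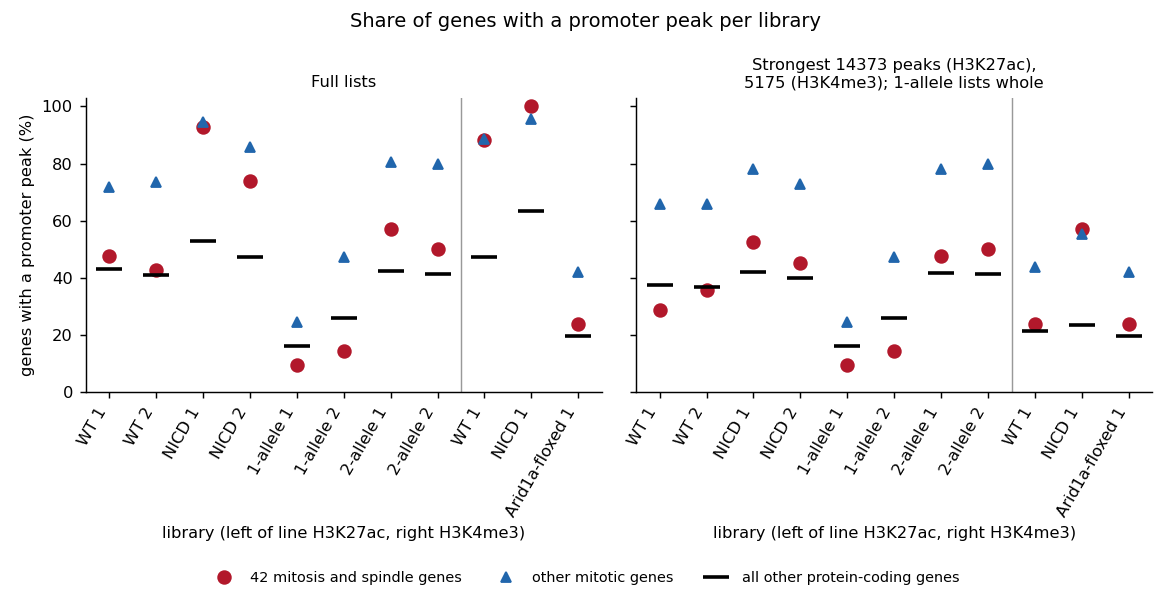
Share of genes with a promoter peak (y axis, percent) in each of the 11 libraries (x axis), for the 42 mitosis and spindle genes (circles), 114 other mitotic genes (triangles) and all other protein-coding genes (bars); left, full lists; right, lists cut to the strongest 14373 peaks for H3K27ac and 5175 for H3K4me3, with the 1-allele lists whole. The mitosis genes reach 39 and 31 of 42 in NICD on the full lists and 22 and 19 on the cut lists, where the WT counts are 12 and 15.

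The difference was smaller on lists of equal length. When the WT, NICD and 2-allele lists were cut to their strongest 14373 peaks, 12 and 15 mitosis genes were counted in WT, 22 and 19 in NICD and 20 and 21 in 2-allele. The backgrounds were then 37.3% and 36.9% of all genes in WT, 41.9% and 40% in NICD and 41.5% and 41.2% in 2-allele. The log2 odds ratios at this length were −0.30 ± 0.34 in WT, 0.46 ± 0.21 in NICD and 0.44 ± 0.11 in 2-allele (SD, n = 2). Both NICD and both 2-allele libraries still lay above both WT libraries. Cut to the 5165 strongest peaks, the lists held 3 and 6 of the mitosis genes in WT, 5 and 5 in NICD, 4 and 4 in 1-allele and 5 and 5 in 2-allele. The shares of all genes were then 19% and 18.9%, 21.1% and 20.3%, 16.1% and 18.8%, and 21.6% and 21.1% in the same order, and no group stood apart from another.

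The mitosis genes entered the H3K27ac lists late. In WT 1 the peaks at mitosis genes had a median list position of 39.7, on a scale where 100 is the strongest peak of that library, against 70.6 for the peaks of all other genes with one. In WT 2 the medians were 48.1 and 69.3, in NICD 1 they were 70.7 and 83.8, and in NICD 2 they were 52.5 and 75.6. Peaks at mitosis genes were therefore weaker than the usual promoter peak of the same library, in NICD as well as in WT. List positions are ranks inside lists of different lengths, given below to describe each peak within its own library, and for 2-allele they follow the order of the file, since those lists hold no score. Across the 8 libraries, 37 of the 42 genes (88.1%) were called in some libraries and not in others, against 41.1% of all genes, and 2 (4.76%) were called in none, against 45.5%.

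**Figure D2:**
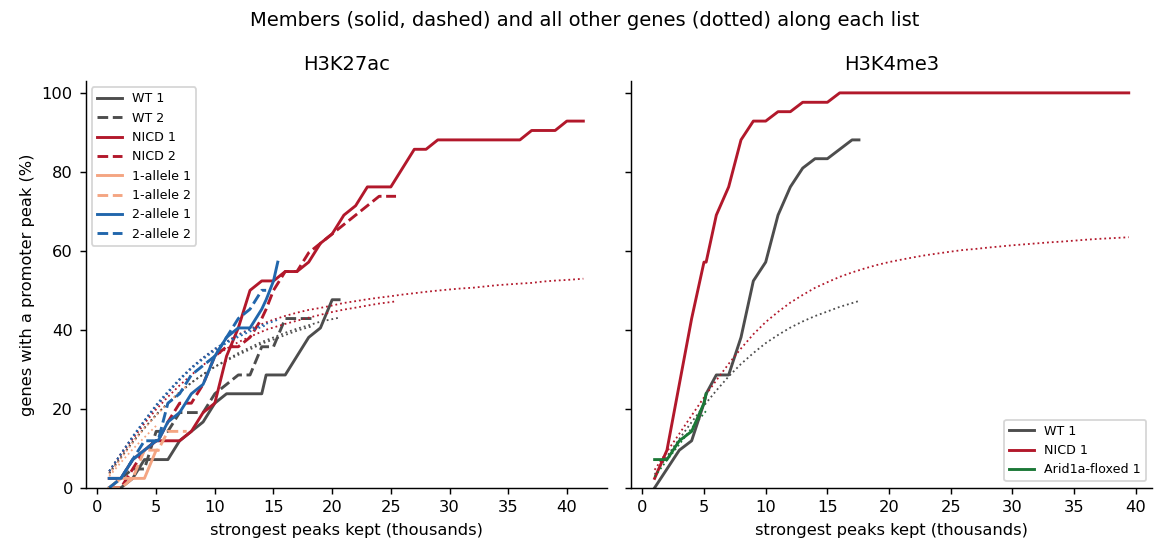
Percent of genes with a promoter peak (y axis) among the strongest peaks kept (x axis, in units of 1000 peaks) for H3K27ac (left) and H3K4me3 (right); solid and dashed lines are the mitosis and spindle genes in replicates 1 and 2 of each group, dotted lines all other protein-coding genes of the same library. The H3K27ac lines of the mitosis genes start below the dotted lines in every group, and the H3K4me3 line in NICD starts below its dotted line at 1000 peaks (2.38% against 4.55%) and lies above it from 2000 peaks on, with 24 of 42 genes inside the first 5175 peaks.

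Of the 42 genes, 11 carried H3K27ac in both NICD libraries and in neither WT library. They are Ccnb1, Ccnb2, Ccnf, Aurkb, Bub1, Bub1b, Cdc20, Cdca8, Top2a, Mybl2 and Anapc5. The same pattern was found at 3.83% of all genes, and the opposite one, WT in both and NICD in neither, at 0 of the 42 genes and 0.114% of all genes. With a single library of either group left out, the count was 12 to 15. The pattern was then found at 911 to 1724 of all genes, against 839 with every library, so the background rose as well. With lists cut to 14373 peaks, 4 genes had the pattern (2.38% of all genes): Aurkb and Anapc5 from the 11, and Cdk1 and Kif23, which lost their WT 1 peak. At this length the opposite pattern was found at Pttg1 (0.589%). At 5165 peaks Kif20a and Anapc5 had the pattern (1.9%), of which Anapc5 alone is among the 11, with Anln in the opposite direction (1.01%).

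The pattern of Anapc5 depended on which gene end was used. The end of the annotated gene lies 997 bp beyond its annotated start, and narrow WT peaks at the start fell outside the window while wider NICD peaks reached into it. Counted at the annotated start, Anapc5 carried H3K27ac in all 8 libraries and H3K4me3 in all 3. The other 10 genes kept the pattern when windows were centred on starts (3.8% of all genes). For Aurkb, which has no annotated start in the table, the start was taken as the end with H3K4me3 in these data.

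No single gene can pass a test here. With 2 libraries against 2, the exact permutation test cannot go below p = 0.333. Over the 4 groups together, the exact permutation test over every pairing of the 8 libraries cannot go below p = 0.0857 for a value that is present or absent, and among 9005 genes tested the smallest Benjamini-Hochberg adjusted p was 0.502. Of these genes, 356 (3.95%) reached the smallest p, and Anapc5 was the single mitosis gene among the 37 tested.

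Promoter sequence was read from the RefSeq promoter table (GRCm38.p6), which spans 250 bases before to 50 bases after each start and holds 35 of the 42 genes in 38 windows. A CCAAT box (CCAAT or ATTGG, so either strand) was found in 31 of the 38 windows (81.6%), against 38.2% of all 21263 promoters of the same length. The core of the cell cycle homology region (TTTGAA or TTCAAA) was found in 27 (71.1%), against 16.0%. Both together were found in 24 (63.2%), against 6.38%, and 22 windows (57.9%) held 2 or more CCAAT boxes, against 12.8%. An E2F-type match (TTTCCCGC, TTTCGCGC, TTTGCCGC or TTTGGCGC, either strand) was found in 2 (5.26%), against 2.85%. The windows had a median CpG observed-to-expected ratio of 0.863 and a median GC content of 58.8%, against 0.567 and 56.3% over all promoters. These are matches of letters and not bound sites.

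Shown first, because they separated NICD from WT and held both motifs, are the promoters of 6 genes, from 5′ to 3′ on the gene's own strand. Capitals mark CCAAT boxes and homology region cores on either strand.
Ccnb2, cyclin B2, chr9:70421505-70421804, minus strand: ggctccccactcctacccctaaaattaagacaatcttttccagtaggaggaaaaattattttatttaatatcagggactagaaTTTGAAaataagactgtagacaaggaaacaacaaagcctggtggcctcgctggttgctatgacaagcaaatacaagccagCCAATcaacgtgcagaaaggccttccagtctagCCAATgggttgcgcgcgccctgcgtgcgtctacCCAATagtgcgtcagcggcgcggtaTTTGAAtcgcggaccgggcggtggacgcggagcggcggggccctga
Ccnf, cyclin F, chr17:24251360-24251659, minus strand: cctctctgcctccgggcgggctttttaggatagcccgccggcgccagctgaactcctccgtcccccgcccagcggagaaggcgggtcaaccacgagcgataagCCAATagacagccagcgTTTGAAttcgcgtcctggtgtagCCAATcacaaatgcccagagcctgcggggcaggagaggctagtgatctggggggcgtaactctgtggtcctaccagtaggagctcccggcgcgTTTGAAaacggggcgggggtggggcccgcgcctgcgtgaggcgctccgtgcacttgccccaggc
Bub1b, checkpoint kinase BubR1, chr2:118597961-118598260, plus strand: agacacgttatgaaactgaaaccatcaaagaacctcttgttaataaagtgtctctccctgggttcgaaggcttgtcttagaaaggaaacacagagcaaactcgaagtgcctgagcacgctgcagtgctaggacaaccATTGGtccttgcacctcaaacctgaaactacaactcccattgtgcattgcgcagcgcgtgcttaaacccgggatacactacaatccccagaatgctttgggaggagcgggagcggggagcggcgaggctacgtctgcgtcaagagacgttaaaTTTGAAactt
Cdc20, APC/C activator, chr4:118437294-118437593, minus strand: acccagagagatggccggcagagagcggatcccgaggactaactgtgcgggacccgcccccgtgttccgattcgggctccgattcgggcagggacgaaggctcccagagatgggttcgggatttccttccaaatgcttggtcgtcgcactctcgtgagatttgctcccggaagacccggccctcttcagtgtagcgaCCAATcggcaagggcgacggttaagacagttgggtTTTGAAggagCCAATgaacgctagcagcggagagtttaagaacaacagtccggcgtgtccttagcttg
Cdca8, borealin, chr4:124936868-124937167, minus strand: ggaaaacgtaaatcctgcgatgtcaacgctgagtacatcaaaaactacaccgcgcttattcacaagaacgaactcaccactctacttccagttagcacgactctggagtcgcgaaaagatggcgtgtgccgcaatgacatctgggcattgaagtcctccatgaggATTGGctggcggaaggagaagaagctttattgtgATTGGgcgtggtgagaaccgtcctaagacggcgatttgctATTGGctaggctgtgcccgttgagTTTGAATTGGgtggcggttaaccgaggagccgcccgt
Top2a, topoisomerase II alpha, chr11:99024140-99024439, minus strand: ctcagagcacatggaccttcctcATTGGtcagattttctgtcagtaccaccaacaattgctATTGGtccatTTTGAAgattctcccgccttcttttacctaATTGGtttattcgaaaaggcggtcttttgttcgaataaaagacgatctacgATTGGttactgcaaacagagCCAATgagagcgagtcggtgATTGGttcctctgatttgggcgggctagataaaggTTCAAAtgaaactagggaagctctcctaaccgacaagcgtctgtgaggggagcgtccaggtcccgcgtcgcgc

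In Ccnb2 the 3 CCAAT boxes lie at −87, −54 and −21 on the gene's strand, counted at their first base with the start as 0, and a homology region core lies at 4 to 9. Ccnf has CCAAT boxes at −147 and −107 and a core at −14 to −9. Cdc20 has CCAAT boxes at −53 and −8 with a core between them at −18 to −13. Cdca8 has 4 CCAAT boxes on the opposite strand, and its core at 13 to 18 shares 1 base with the last of them. Top2a has 6 CCAAT boxes, the most of the 6 genes shown. Bub1b has 1 CCAAT box at −113 to −109 and a core at 40 to 45, after the start.

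For comparison, these are the promoters of 2 genes that carried H3K27ac in all 8 libraries, with capitals as above and also for an E2F-type match.
Cdc25a, Cdk-activating phosphatase, chr9:109875329-109875628, plus strand: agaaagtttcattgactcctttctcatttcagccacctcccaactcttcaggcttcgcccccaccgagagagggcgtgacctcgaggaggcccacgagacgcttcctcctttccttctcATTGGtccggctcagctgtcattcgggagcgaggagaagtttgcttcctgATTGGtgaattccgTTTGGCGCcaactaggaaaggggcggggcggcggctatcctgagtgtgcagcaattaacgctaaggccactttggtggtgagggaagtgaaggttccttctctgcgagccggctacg
Kif11, kinesin-5 motor, chr19:37376132-37376431, plus strand: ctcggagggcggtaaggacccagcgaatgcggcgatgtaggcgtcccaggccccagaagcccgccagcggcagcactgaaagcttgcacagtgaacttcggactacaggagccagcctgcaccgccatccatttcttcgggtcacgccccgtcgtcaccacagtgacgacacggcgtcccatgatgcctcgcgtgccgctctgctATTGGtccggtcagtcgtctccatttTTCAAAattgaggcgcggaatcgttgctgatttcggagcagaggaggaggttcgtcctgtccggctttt

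Cdc25a has 2 CCAAT boxes and an E2F-type match at −67 to −60 and no homology region core in this window. Kif11 has 1 CCAAT box at −45 to −41 and a core at −19 to −14, both on the opposite strand. Both motifs were thus present in Kif11, which was called in every library, and not in Cdc25a. Of the 11 genes called in NICD and not in WT, 10 are in the promoter table, and 6 of these hold both. The first 6 promoters were printed for holding both motifs, so their motifs say nothing on the pattern of calls.

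Peaks lay on either side of the start, with a dip at the start itself. At 200 bp after the annotated start, H3K27ac peaks covered 29 of 35 mitosis genes (82.9%) in NICD 1 and 15 (42.9%) in NICD 2, against 47.3% and 39.9% of all 17492 annotated genes. In WT the same position was covered in 2 (5.71%) and 4 (11.4%) of the 35, against 31.7% and 30.4% of all genes. The highest coverage in WT was instead upstream, at 17.1% 300 bp before the start in WT 1 and 20% at 400 bp before it in WT 2. The WT mitosis peaks were also narrow, with median widths of 207.5 and 264.5 bp, against 478 and 339 bp in NICD. Over all peaks the medians were 240 and 272 bp in WT and 396 and 347 bp in NICD. Peak widths and fragment lengths moved with genotype, and their part in this difference was not tested.

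**Figure D3:**
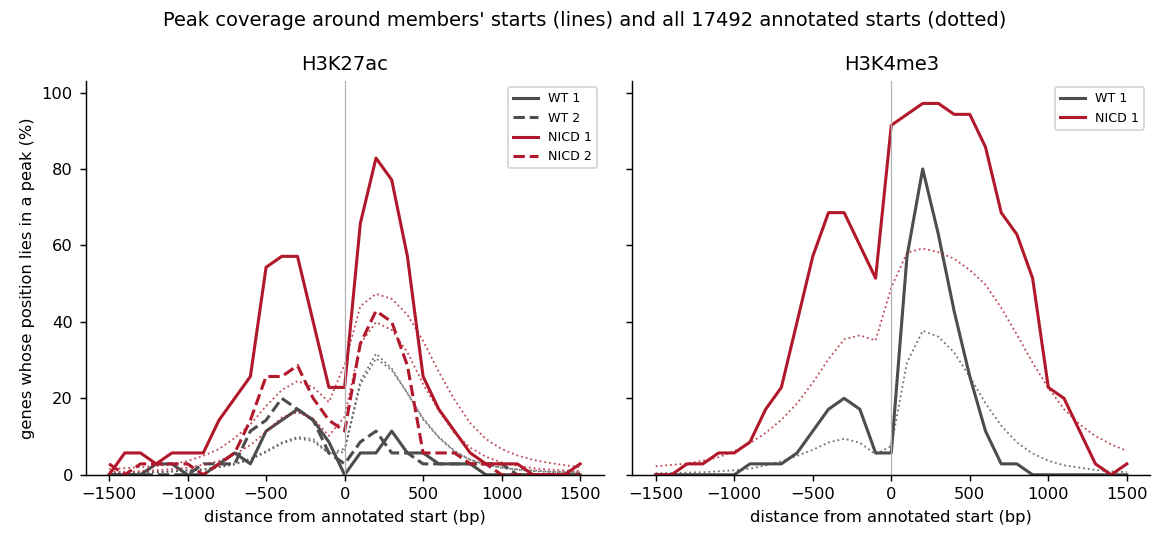
Percent of genes whose position lies inside a peak (y axis) by distance from the annotated start (x axis, bp; negative is upstream), for 35 mitosis and spindle genes (solid and dashed lines) and all 17492 genes with an annotated start (dotted lines), in H3K27ac (left) and H3K4me3 (right). In NICD the mitosis genes' lines peak at 200 bp after the start, at 82.9% and 42.9% for H3K27ac and 97.1% for H3K4me3, and the WT H3K27ac lines stay at or below 20%.

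Counts by role, here and below, are from full lists of unequal length and were not made at equal length. On these lists the shares of all genes were 53% and 47.3% in NICD and 43.1% and 40.9% in WT. They were 16.1% and 25.8% in 1-allele and 42.6% and 41.2% in 2-allele. Among the cyclins, Cdk1 and the Cdc25 phosphatases, 6 of 8 genes carried H3K27ac in each NICD library, against 3 and 1 in WT, 1 and 1 in 1-allele and 5 and 2 in 2-allele. Ccnb1 (chr13:100778739-100786486), which encodes cyclin B1, the main partner of Cdk1, had peaks at list positions 37.8 in NICD 1 and 44.0 in NICD 2 and none in the other 6 libraries. Ccnb2 stood at 69.0 and 29.6 in NICD and at 4.0 in 2-allele 1, with no peak in the others. On full lists both cyclin B genes were therefore called in NICD, with at most a peak from the weak end of a list elsewhere. The NICD lists were also the longest, and on lists cut to equal length neither gene separated NICD from WT.

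Ccnf, whose product is the substrate-binding part of a ubiquitin ligase, stood at 46.9 and 41.3 in NICD and 1.0 in 2-allele 1. Cdk1 (chr10:69335146-69352912), the kinase that drives mitosis, had peaks at 17.8 in WT 1, 70.8 and 52.5 in NICD and 13.98 and 26.1 in 2-allele, and none in WT 2 or 1-allele. It was thus called in both libraries of NICD and 2-allele and in 1 of WT. Cdc25b, a phosphatase that starts Cdk1 activation, stood at 47.6 in WT 1, 71.6 and 62.0 in NICD and 2.7 in 2-allele 1.

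Cdc25a, which also acts at entry into S phase, differed from these in being called everywhere. Its list positions were 83.3 and 77.4 in WT, 88.8 and 88.3 in NICD, 13.7 and 69.9 in 1-allele and 95.9 and 83.3 in 2-allele. Ccna2, which encodes cyclin A2, and Cdc25c had no H3K27ac peak within 1 kb in any library. With a window of 2.5 kb, Ccna2 was called in both NICD libraries, in a single 2-allele library and in neither WT nor 1-allele library. Ccna2 carried H3K4me3 in NICD alone, at list position 89.1, in a window shared with Bbs7, whose end lies 104 bp away. Cdc25c carried H3K4me3 at 13.4 in WT and 69.3 in NICD.

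Among the 6 mitotic kinases, 5 carried H3K27ac in each NICD library, against 2 and 3 in WT, 1 and 1 in 1-allele and 4 and 4 in 2-allele. Aurkb (chr11:69045624-69051664), the kinase of the chromosomal passenger complex, stood at 75.0 and 66.2 in NICD, 15.1 in 1-allele 1 and 42.5 and 55.8 in 2-allele. It had no peak in either WT library, and it is the single gene of the 42 that separated both NICD and 2-allele from WT on full lists, on lists cut to 14373 peaks and with windows centred on starts. Its start point is the gene end with H3K4me3 in these data, already part of the main window, so for Aurkb that last setting is no separate check. At 5165 peaks it separated neither. Aurka, the kinase of spindle poles, was called in both WT libraries instead, at 55.3 and 17.2, and stood at 75.8 and 62.5 in NICD and 58.7 and 25.3 in 2-allele. Its window also holds the start of Cstf1, 75 bp away.

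Bub1, a checkpoint kinase at kinetochores, stood at 50.3 and 22.8 in NICD and 17.7 in 2-allele 2. Ttk, which recruits the checkpoint proteins to kinetochores, was called in 7 libraries, at 31.3 and 75.6 in WT, 74.2 and 56.9 in NICD, 27.2 in 1-allele 2 and 64.1 and 41.1 in 2-allele. Ttk was thus called in WT where Bub1 was not. Plk1 was called in WT 2, NICD 1 and 2-allele 1, and so in 1 library of each of these 3 groups. The single H3K27ac peak of Nek2, in NICD 2 at position 8.1, lay at the far end of the gene and not at its start.

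Among checkpoint, APC/C and separase genes, 8 and 6 of 8 carried H3K27ac in NICD, against 3 and 4 in WT, 0 and 1 in 1-allele and 3 and 4 in 2-allele. Bub1b, whose product BubR1 holds Cdc20 inactive, stood at 63.2 and 37.5 in NICD and had no other H3K27ac peak. Cdc20 itself stood at 35.6 and 45.4 in NICD and likewise had none in the other 6 libraries. The inhibitor and its target thus had the same pattern of calls. Bub3 was called in 6 libraries and Mad2l1 in 6, both of them in both 2-allele libraries. Mad2l1 stood at 21.7 and 62.5 in WT and 54.4 and 45.9 in NICD, and was uncalled in 1-allele alone.

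Pttg1, which encodes securin, was called in both WT libraries, both NICD libraries and 2-allele 2, with list positions of 48.7 and 39.7 in NICD. Espl1, the separase that securin inhibits, was called in WT 1 and NICD 1 alone, and Ube2c, the E2 enzyme of the APC/C, in WT 2 and NICD 1. These calls rest on 1 library of a group and do not separate the groups.

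All 9 kinetochore and centromere genes carried H3K27ac in NICD 1 and 6 did in NICD 2, against 5 and 6 in WT, 0 and 1 in 1-allele and 5 and 4 in 2-allele. Cdca8, which encodes borealin of the chromosomal passenger complex, stood at 35.1 and 16.3 in NICD and had no other H3K27ac peak. Its start lies 67 bp from that of 9930104L06Rik, so the peaks cannot be assigned to one gene. Incenp, the scaffold of the same complex, was called in both WT libraries, at 31.9 and 18.3, and at 76.2 and 67.4 in NICD and 22.6 and 50.4 in 2-allele. The genes of 1 complex therefore differed in their WT calls, with Aurkb and Cdca8 uncalled and Incenp called.

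The Ndc80 complex, which binds microtubules at the kinetochore, was split as well. Ndc80 was called in 7 libraries, at 84.5 and 73.7 in WT and 98.2 and 86.8 in NICD, in a window shared with Spdya 38 bp away. Spc25 was called in 6 libraries, at 3.7 and 48.5 in WT, 80.7 and 77.1 in NICD and 61.7 and 59.6 in 2-allele. Nuf2 was called in both WT libraries, at 5.0 and 17.7, and in NICD 1 at 38.2, and Spc24 was called in NICD 1 alone. Nuf2 is the single gene of the 42 called in both WT libraries and neither 2-allele library, a pattern found at 1.41% of all genes.

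All 8 motor, spindle and cytokinesis genes carried H3K27ac in NICD 1 and 6 did in NICD 2, against 6 and 4 in WT, 2 and 2 in 1-allele and 5 and 7 in 2-allele. WT 1 thus equalled NICD 2 here, and 2-allele 2 held more than NICD 2. Kif11 (kinesin-5, which pushes spindle poles apart) was called in every library, at 69.1 and 92.9 in WT, 92.7 and 85.4 in NICD, 10.3 and 59.6 in 1-allele and 69.8 and 79.0 in 2-allele. Anln, an actin-binding protein of the cleavage furrow, was also called in all 8, at 86.8 and 88.5 in WT, 82.9 and 78.0 in NICD, 64.4 and 48.9 in 1-allele and 53.5 and 88.0 in 2-allele. With Cdc25a it is 1 of 3 genes called throughout, and its window holds the start of 9530077C05Rik, 647 bp away. Kif20a, a motor of the central spindle, stood at 70.5 and 62.0 in WT, 94.2 and 82.9 in NICD and 75.5 and 73.8 in 2-allele, in a window shared with Brd8 239 bp away.

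Kif23, the motor of the centralspindlin complex, stood at 15.7 in WT 1, 78.5 and 62.9 in NICD and 39.8 and 46.9 in 2-allele. Prc1, which bundles the microtubules of the central spindle, stood at 13.2 in WT 1, 45.3 and 19.6 in NICD and 9.6 and 16.0 in 2-allele. Its window is shared with Rccd1, 115 bp away, so these peaks cannot be assigned to one gene. Tpx2 was called in 5 libraries, both WT and both NICD among them. Kif2c had a single H3K27ac peak, in NICD 1 at position 4.0, at a gene end 3852 bp from its annotated start, and Ect2 was called in NICD 1 and 2-allele 2.

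Of the last 3 genes, Top2a, which untangles sister chromosomes, stood at 52.8 and 26.0 in NICD and 0.5 in 2-allele 1. Mybl2, the B-Myb factor of the complex that switches on late cell cycle genes, stood at 58.8 and 10.0 in NICD and had no other H3K27ac peak. Mki67, the gene of the proliferation antigen Ki-67, was called in WT 1 at 4.3, NICD 1 at 67.0 and 2-allele 1 at 40.1, and in none of the second replicates.

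**Figure D4:**
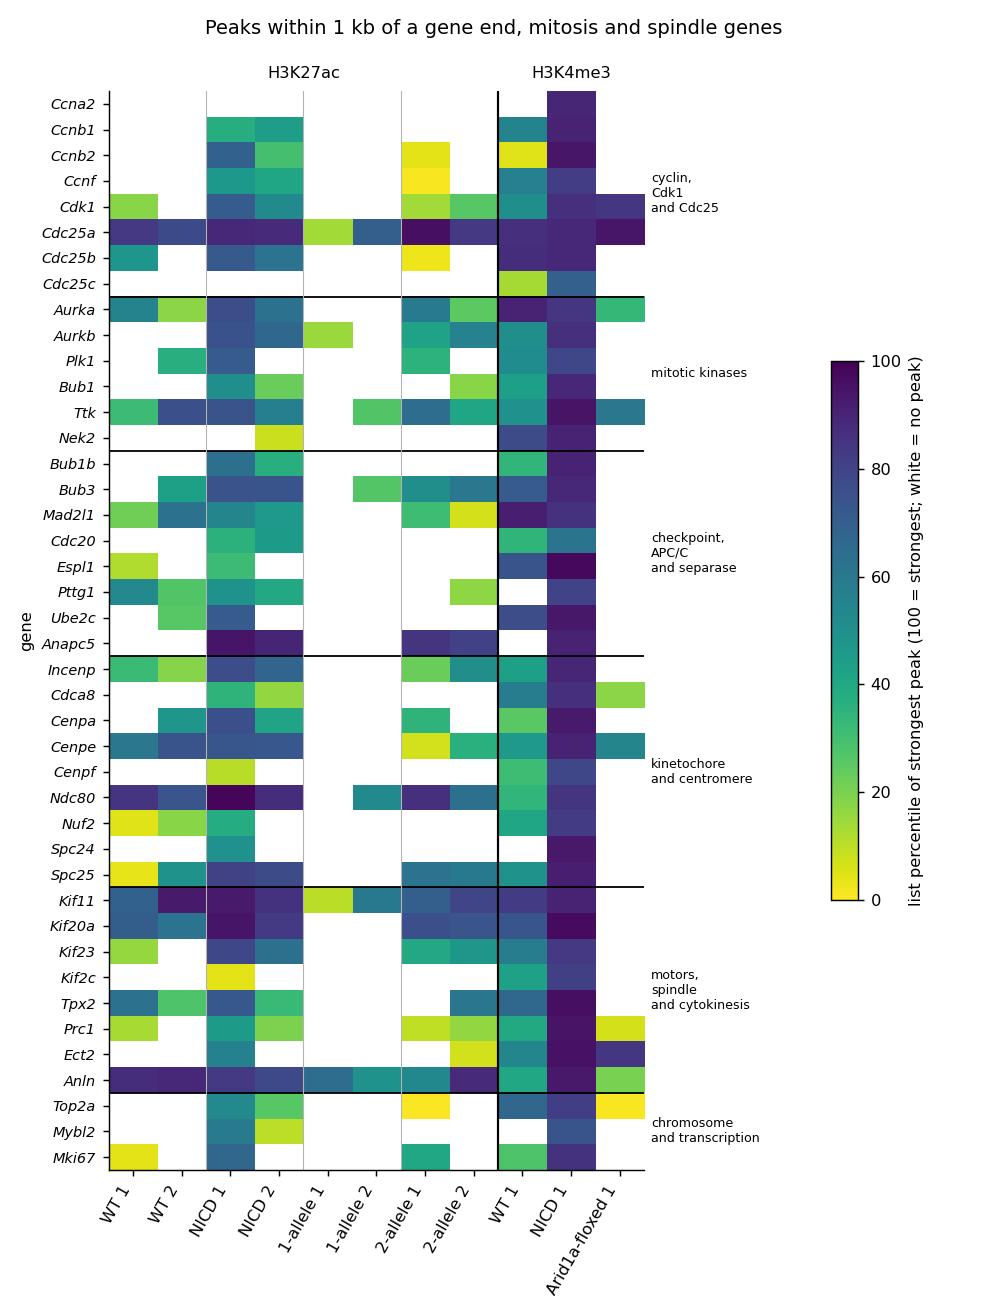
List position of the strongest promoter peak (colour; 100 is the strongest peak of that library, white means no peak) for the 42 genes (y axis, grouped by role) in the 8 H3K27ac and 3 H3K4me3 libraries (x axis). Cdc25a, Kif11 and Anln are filled in all 8 H3K27ac columns, Ccna2 and Cdc25c in none, and the H3K4me3 NICD column is filled for all 42 genes.

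The 1-allele libraries held few of these genes. Against NICD, 23 genes were called in both NICD libraries and in neither 1-allele library (18.8% of all genes), and 0 had the opposite pattern (0.00914%). Cut to 14373 peaks with the 1-allele lists whole, 9 were left (11.2%), and at the equal length of 5165 peaks 2 were left, Kif20a and Anapc5 (2.39%), with Anln in the opposite direction (0.758%). Against WT, 9 genes were called in both WT libraries and neither 1-allele library: Aurka, Mad2l1, Incenp, Kif20a, Tpx2, Cenpe, Nuf2, Spc25 and Pttg1 (11.1%). The opposite pattern was found at 0 of the 42 genes and at 0% of all genes. Without WT 2 the count against WT was 15, with the pattern at 3373 of all genes, against 2434 with every library. On lists cut to 14373 peaks the count was 4 (7.67%) and at 5165 peaks it was 0 (1.7%). Genotype and list length cannot be told apart here: at equal length, 3 to 6 of the 42 genes were called in every library.

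In 2-allele, 10 genes were called in both libraries and in neither 1-allele library: Cdk1, Aurka, Mad2l1, Incenp, Kif20a, Kif23, Cenpe, Spc25, Prc1 and Anapc5 (12% of all genes). The opposite pattern was found at 0 of the 42 genes and 0.0411% of all genes. Without 2-allele 2 the count was 17, with the pattern at 3280 of all genes, against 2623 with every library. At 5165 peaks 2 were left, Kif20a and Anapc5 (2.82%). The 2-allele lists hold no scores and no depth, so their order in the file stood in for strength when they were cut.

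Against NICD, 5 genes were called in both NICD libraries and neither 2-allele library: Ccnb1, Bub1b, Cdc20, Cdca8 and Mybl2 (3.8% of all genes). The opposite pattern was found at 0 of the 42 genes and 0.0228% of all genes. All 5 are among the genes that also separated NICD from WT, and the 2 comparisons share the NICD libraries. Without NICD 2 the count was 11, without 2-allele 1 it was 10 and without 2-allele 2 it was 8. Of all genes, 1860, 1473 and 1206 then had the pattern, against 831 with every library, so the background rose as well. Cut to 14373 peaks, Cdc25b alone had the pattern (0.777%) and Prc1 the opposite one (0.841%), and at 5165 peaks 0 genes had the first pattern (1.18%), so the 5 genes were no longer separated at equal list length.

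Against WT, 2-allele was called in both libraries and WT in neither at Aurkb and Anapc5 (1.29% of all genes). Without 1 library the count was 3 to 5, with the pattern at 468 to 775 of all genes, against 283 with every library. With windows centred on starts, Aurkb alone was left (1.28%), and at 5165 peaks Kif20a and Anapc5 had the pattern (2.27%). At 14373 peaks there were 5 such genes: Cdk1, Aurkb, Kif23, Prc1 and Anapc5 (2.86%). The opposite pattern, at Nuf2, was found at 2 genes without WT 1, 2 without WT 2 and 3 without 2-allele 2, and at 0 on lists cut to 14373 (0.717%) or 5165 peaks (1.12%).

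In WT and NICD, more of these genes carried H3K4me3 than H3K27ac. H3K4me3 was counted at 37 of 42 in WT (88.1%), at 42 in NICD (100%) and at 10 in Arid1a-floxed (23.8%). The 42 genes are a chosen list and not a sample, so no interval is given for these shares, and 1 library a group allows no test. Over all genes the shares were 47.4%, 63.5% and 19.5%, so the mitosis genes stood above the background in WT and NICD and near it in Arid1a-floxed. At the equal length of 5175 peaks, the counts were 10, 24 and 10, against 21.5%, 23.7% and 19.5% of all genes.

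In NICD the H3K4me3 peaks of the mitosis genes were strong for that library. Their list positions ran from 61.6 to 97.7 with a median of 88.9, against 82.0 for all other genes with a peak, and all 42 lay above the middle of the list, as did 89.7% of other genes with a peak. In WT they ran from 5.0 to 91.6 with a median of 50.3, against 67.4 for other genes. Espl1 at 97.7, Kif20a at 97.2 and Tpx2 at 95.8 were the highest in NICD, and Cdc20 at 61.6 was the lowest. The NICD peaks were wide, with a median of 1118.5 bp against 281 bp in WT, and covered the start base itself at 91.4% of 35 genes, against 5.71% in WT. Over all annotated genes, the start base was covered at 49.0% in NICD and 7.53% in WT. Over all H3K4me3 peaks the median widths were 540 bp in NICD and 306 bp in WT, with fragments of 186 and 142 bp. The part of these list-wide differences at the mitosis genes was not tested.

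Ccna2, Spc24, Pttg1, Mybl2 and Anapc5 were called for H3K4me3 in NICD and not in WT (16.2% of all genes), and 0 of the 42 the other way (0.0731%). At annotated starts, Pttg1 and Anapc5 were called in WT as well. Among the strongest 5175 peaks, 16 genes were called in NICD and not in WT (8.16%), among them Ccna2, Ccnb1, Ccnb2, Bub1, Bub1b, Incenp and Cenpa, and 2 in WT and not in NICD, Aurka and Mad2l1 (5.95%). On full lists, 32 genes were called in NICD and not in Arid1a-floxed (44.1%), and 27 in WT and not in Arid1a-floxed (28%). The opposite was found at 0 genes, both against NICD (0.00914%) and against WT (0.128%). Among the strongest 5175 peaks, 18 were called in NICD and not in Arid1a-floxed (10.8%) and 4 the other way (6.54%). For WT the counts at that length were 8 (8.86%) and 8 the other way (6.86%), so the difference from WT had no direction at equal list length. The 10 genes called in Arid1a-floxed were Cdk1, Aurka, Ttk, Cdc25a, Cdca8, Top2a, Cenpe, Prc1, Ect2 and Anln, with Cdc25a highest at 94.0.

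The NICD H3K4me3 list also reached genes of other cell types. It called 3 of 10 blood, 5 of 8 fibroblast, 2 of 6 endothelial and 3 of 5 muscle markers, against 0, 1, 0 and 0 in WT, and 6 of 20 genes chosen as silent in the stomach, against 1 in WT. Over all genes, the H3K4me3 shares were 63.5% in NICD and 47.4% in WT. In H3K27ac on full lists, blood markers were called at 4 and 2 of 10 in NICD, 1 and 0 in WT, 0 and 0 in 1-allele and 2 and 0 in 2-allele. The H3K27ac shares of all genes were 53% and 47.3% in NICD and 43.1% and 40.9% in WT. Fibroblast markers were called at 2 and 0 of 8 in NICD and 0 in each WT library, and endothelial markers at 0 of 6 in all 8 libraries. Housekeeping genes were called for H3K27ac at 19 and 17 of 20 in NICD and 15 and 15 in WT. The part of these shifts in the calls at mitosis genes was not tested.

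The marks overlapped less at mitosis genes than elsewhere in WT. Of the 37 with H3K4me3 in WT, 19 (51.4%) carried H3K27ac in WT 1 and 17 (45.9%) in WT 2, against 85.0% and 81.2% of other genes with H3K4me3. In NICD, 39 (92.9%) and 31 (73.8%) of 42 carried both, against 81.8% and 73.9% of other genes. With H3K4me3 cut to 5175 peaks and H3K27ac to 14373, 5 and 6 of 10 mitosis genes carried both in WT, against 89.4% and 89.3% of other genes. In NICD, 15 and 12 of 24 did at that length, against 92.4% and 89.1%. On full lists the gap to other genes was thus seen in WT and not in NICD, and on cut lists it was seen in both.

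**Figure D5:**
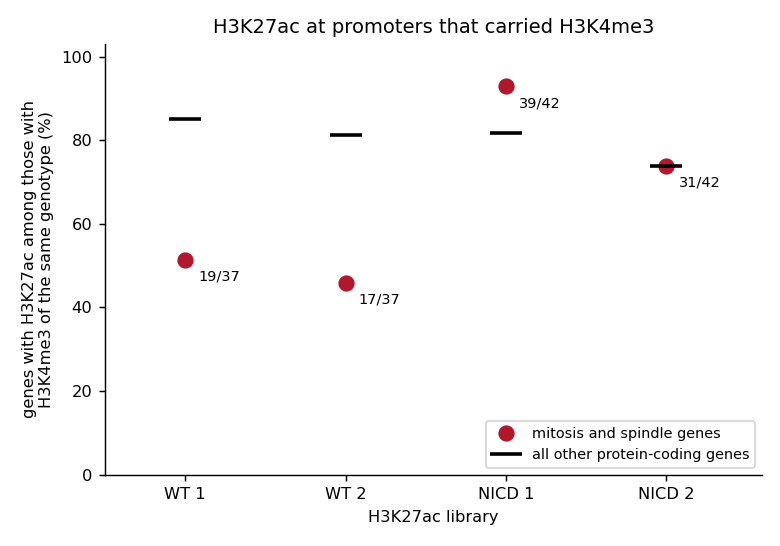
Percent of genes with H3K27ac among those with H3K4me3 of the same genotype (y axis) for the WT and NICD H3K27ac libraries (x axis), full lists; circles are the mitosis and spindle genes with their counts, bars all other protein-coding genes. The circles lie at 51.4% and 45.9% in WT, below the bars at 85.0% and 81.2%, and at 92.9% and 73.8% in NICD, beside bars at 81.8% and 73.9%.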

How the data were processed

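ChIP-seq peak lists of 11 libraries were used, 1 per library. Alignment by Bowtie2 against GRCm38 (mm10) and MACS2 peak calling are named in the submitters' processing notes. According to the file headers, MACS 2.0.10.20131216 made 9 of the lists, from 1 library each without a control, with duplicates removed, the q-value threshold at 0.05, a local background of up to 10 kb and an effective genome size of 2.7 Gb, the human setting. The deposited columns for each peak are pileup signal (tags at its summit), fold enrichment relative to its own library's background, and both −log10 p-value and q-value. The authors' scores served here to rank or filter peaks within one list. The 2-allele lists give only positions. Of the first 1000 regions in them, 99.4% and 99.8% overlapped a WT 1 peak, against 40.4% and 41.5% of the last 1000, so file order was used as rank. Their depth is unknown.

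Autosomal (1 to 19), X and Y peaks were used (Python 3.11.15, pandas 2.3.3, numpy 2.4.6, scipy 1.17.1). Genes and promoters came from RefSeq tables of GRCm38.p6. List position runs from 0 to 100 by q, then fold. A gene without a peak may still carry the mark. The code that assigns peaks to genes was tested on simulated data, which checks the counting and not the peak calls. The members and all gene lists were chosen with earlier results of these data known. All 42 genes could be named. Positions were printed for genes that separate NICD from WT or 2-allele from NICD and for genes called in all 8 or no H3K27ac libraries, and some others were added after their values were seen. Of the other mitotic genes, at most 10 that separate NICD from WT were named, in order of mean NICD list position. Promoters were printed for up to 6 genes that separate NICD from WT with both motifs and for 2 called in all 8. Alternatives were a 2.5 kb window, annotated starts, peak midpoints, −log10 q of at least 2 or 5, lists of equal length, and each library left out. The annotated start was known for 35 of the 42 genes, and for the other 7 the end with H3K4me3 was used.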

Additional observations from a re-analysis of the deposited data

How the results depend on the processing

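Windows of 2.5 kb, starts in place of gene ends, and peak midpoints kept 22 of 23 counts within 1.5 times and moved 1, the count for 2-allele against WT, from 2 to 1 under each. With −log10 q of at least 2, all 21 counts that could be recomputed stayed within 1.5 times. With −log10 q of at least 5, 14 did. The others were members called in WT 1 (10), 1-allele 1 (1) and Arid1a-floxed H3K4me3 (4), with 7909, 2116 and 1762 of all genes called. Also moved were NICD without 2-allele (3, and 456 of all genes), 2-allele without WT (6, and 846), WT without 2-allele (0, and 108) and WT without 1-allele (2, and 2652). Without the filter these patterns were found at 831, 283, 309 and 2434 of all genes. The count for NICD without WT stayed close, at 10 against 11, but only 7 genes were shared. Bub1, Cdca8, Top2a and Mybl2 were lost, and Cdk1, Incenp and Kif23 were added. That pattern was found at 1278 of all genes with the filter, against 839 without it. The 2-allele lists hold no q and stayed whole, so the counts against 2-allele moved with a filter on the other group alone and say nothing on stability.

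Cut to the shortest list of the mark, the H3K27ac counts were 3 and 6 in WT (19% and 18.9% of all genes), 5 and 5 in NICD (21.1% and 20.3%), and 5 and 5 in 2-allele (21.6% and 21.1%). The H3K4me3 counts were 10 in WT (21.5%) and 24 in NICD (23.7%). Genes separating groups then numbered 2 (NICD without WT, 1.9% of all genes), 1 (WT without NICD, 1.01%), 2 (NICD without 1-allele, 2.39%) and 1 (1-allele without NICD, 0.758%). The other counts were 0 (NICD without 2-allele, 1.18%), 2 (2-allele without 1-allele, 2.82%), 0 (WT without 2-allele, 1.12%) and 0 (WT without 1-allele, 1.7%). Cut to 14373 peaks, the counts were 12 in WT 1 (37.3% of all genes) and 22 and 19 in NICD (41.9% and 40%). Genes separating groups were 4 (NICD without WT, 2.38%), 1 (WT without NICD, 0.589%), 9 (NICD without 1-allele, 11.2%) and 1 (NICD without 2-allele, 0.777%). The rest were 1 (2-allele without NICD, 0.841%), 5 (2-allele without WT, 2.86%), 0 (WT without 2-allele, 0.717%) and 4 (WT without 1-allele, 7.67%).

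Leaving out 1 library gave 0 to 1 for WT without NICD (27 to 171 of all genes) and 6 to 11 for NICD without 2-allele (907 to 1860). It gave 11 to 17 for 2-allele without 1-allele (3056 to 5072), 3 to 5 for 2-allele without WT (468 to 775) and 1 to 3 for WT without 2-allele (460 to 711). The last ranges were 0 to 1 for 1-allele without WT (2 to 60) and 9 to 15 for WT without 1-allele (2941 to 4847). A group reduced to 1 library stands for itself, so such counts can only grow. No paired analysis was possible because the counts come from no test and replicate numbers name no shared animal or day. Depth differed between groups, and NICD 2 held 7.96 M tags, so genes uncalled there may carry weak marks. The cause of these changes was not tested, apart from list length, which the cut lists alter by construction.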

Other observations

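A second list of 114 mitotic genes, covering condensin and cohesin, the rest of the APC/C, other kinetochore, spindle and centrosome proteins and regulators of mitotic entry, was called more often than the 42 genes in each H3K27ac library. On full lists, H3K27ac was counted at 82 and 84 of them in WT and 108 and 98 in NICD. It was counted at 28 and 54 in 1-allele and 92 and 91 in 2-allele. The shares of all genes were 43.1% and 40.9%, 53% and 47.3%, 16.1% and 25.8%, and 42.6% and 41.2% in the same order. At 5165 peaks the 114 genes were called at 26.3% ± 2.48 in WT and 36.8% ± 1.24 in NICD. They were called at 25.9% ± 1.86 in 1-allele and 37.3% ± 4.34 in 2-allele. Over all genes outside the 42, the means were then 18.98%, 20.8%, 17.5% and 21.4%. The 1-allele share was thus close to that of WT at this length. On full lists, APC/C genes, most of which are expressed throughout the cell cycle, were called at 90.6% ± 4.42 in WT and 93.8% in both NICD libraries (SD, n = 2). Their shares were 84.4% ± 4.42 in WT and 87.5% in NICD at 14373 peaks. At 5165 peaks they were 25% in WT and 50% ± 8.84 in NICD. Spindle, centrosome and cytokinesis genes were called at 60.3% ± 2.08 in WT and 95.6% ± 6.24 in NICD. At 14373 peaks the spindle shares were 48.5% ± 2.08 and 67.6% ± 4.16, and at 5165 peaks 23.5% ± 4.16 and 27.9% ± 2.08. The difference between WT and NICD was thus smaller on shorter lists at spindle genes, and larger at 5165 peaks at APC/C genes. Of the 114 genes, 14 carried H3K27ac in both NICD libraries and neither WT library, and 0 the other way (3.83% and 0.114% of all genes). At 14373 peaks 7 genes had the pattern and 0 the opposite one (2.38% and 0.589% of all genes). At 5165 peaks 6 had it and 1, Ncapd3, the opposite one (1.9% and 1.01%).

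In order of their mean list position in NICD, the first 10 of these 14 were Cenpw, Racgap1, Haus4, Kif18b, Kif22, Fam83d, Haus7, Lin54, Ska2 and Nusap1. Cenpw, a centromere protein, stood at 75.8 and 70.2 in NICD. Racgap1, the partner of Kif23 in centralspindlin, stood at 70.3 and 68.5, and these genes were also called in both 2-allele libraries, with no 1-allele call. Kif18b and Fam83d were called in 0 libraries of 2-allele and of 1-allele. Lin54, a subunit of the DREAM complex that binds the cell cycle homology region, was called in both WT libraries when windows were centred on starts, so its pattern depended on the gene end used.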
